A study of Homo sapiens with 6 samples.

Results

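BTG1, BTG2, BTG3, TOB1, TOB2, ZFP36, ZFP36L1 and ZFP36L2 encode small proteins that restrain proliferation, largely by shortening the poly(A) tails of other mRNAs. Their rows were found by matching the deposited gene identifiers, without version, to these 8 symbols. All 8 were among the 57820 gene rows, and all 8 passed the expression filter into the 17679 genes tested. RNA came from U266, an established plasma cell myeloma line. MYC cells were 3 samples labelled as overexpressing MYC, from a line made with a lentiviral vector in which the EF1A promoter drives C-MYC. They were set against 3 samples labelled control, and the labels do not say whether these carry an empty vector. Whether the MYC line is 1 clone or a pool, and whether the samples of a group are separate cultures, is not given in the sources used here, so p-values measure the spread between these samples, which may be technical. The design asks how raised MYC alters the transcriptome.

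As background, the BTG and TOB proteins share an N-terminal domain that binds the deadenylase subunits CNOT7 and CNOT8, and they can bring the CCR4-NOT complex to poly(A)-binding protein. BTG1 and BTG2 are close relatives that are highly expressed in resting lymphocytes. TOB1 and TOB2 have longer C-terminal parts that bind poly(A)-binding protein. ZFP36 (tristetraprolin), ZFP36L1 and ZFP36L2 carry a pair of CCCH zinc fingers that bind AU-rich elements in 3′ untranslated regions and recruit CCR4-NOT, and several members of the family have such elements in their own mRNAs. BTG1, ZFP36L1 and other members are recurrently mutated in B cell malignancies.

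The element bound by the ZFP36 proteins is shown first because all 3 of their own mRNAs carry it. In the longest annotated 3′ untranslated region of each (GENCODE 29, GRCh38), the sense strand was searched for TATTTAT, written as DNA, with overlaps allowed. ZFP36, ZFP36L1 and ZFP36L2 had 3 matches each, BTG3 had 2, BTG1, BTG2 and TOB2 had 1 each and TOB1 had 0. Of 13148 tested genes with an annotated 3′ untranslated region, 8637 had 0 matches, 3620 had 1 to 2 and 891 had 3 or more. The matches of the ZFP36 genes are printed with the bases on either side, and capitals mark the 7 bases searched. They start 493 to 533 bases after the stop codon in ZFP36, 2135 to 2394 bases in ZFP36L1 and 854 to 1090 bases in ZFP36L2. Whether these sites are bound in U266 was not measured.
ZFP36 site 1: gggcccttTATTTATgacgactt
ZFP36 site 2: gacgacttTATTTATtctaatat
ZFP36 site 3: ttttatagTATTTATatatattg
ZFP36L1 site 1: tcaaaacgTATTTATtgccaaac
ZFP36L1 site 2: tttgttcaTATTTATcgggatga
ZFP36L1 site 3: tgttggatTATTTATtttagaaa
ZFP36L2 site 1: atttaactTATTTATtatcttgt
ZFP36L2 site 2: tcatactgTATTTATcaagtatg
ZFP36L2 site 3: gtatgtaaTATTTATttcattaa

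MYC itself, the check of the labels, stood at 105.4, 110.3 and 92.1 CPM in the MYC libraries, against 3.91, 4.16 and 4.51 CPM in control (CPM, the count scaled to library size with TMM factors). Its log2 fold change was 4.60 ± 0.098 (SE), and vector transcripts are not separated from endogenous ones. The depth of the libraries, as summed expected counts, lay between 27139978 and 158667309, and the lowest count of any of the 8 genes was 383 (ZFP36, MYC replicate 1). All 8 plasma cell markers were tested, of which 1 was called higher and 5 lower in MYC, with a summed level of 3099 to 3412 CPM in MYC and 4125 to 4481 CPM in control. Of all genes tested, 28.8% were called higher and 32.1% lower. The summed level of 6 T and NK cell markers was 12.97 to 15.4 CPM in MYC and 8.82 to 11.5 CPM in control, and that of 6 epithelial markers 6.66 to 7.72 CPM and 3.83 to 4.64 CPM in MYC and control. The 6 myeloid markers summed to 2.48 to 2.94 CPM in MYC and 2.38 to 2.91 CPM in control, and the 6 stromal markers to 9.56 to 10.7 CPM and 9.81 to 11.95 CPM. LUM was the only one of these markers with 0 counts in every library. The part of these marker differences in the results was not tested.

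Most of the 8 genes were lower in MYC cells. A gene was called when its Benjamini-Hochberg adjusted p in edgeR's quasi-likelihood test, over all genes tested, was under 0.05. ZFP36L1 and BTG1 fell most, TOB2, ZFP36, BTG2 and TOB1 also fell, BTG3 rose and ZFP36L2 was not called. Thus 7 of 8 were called, where 60.8% of all genes tested were. Of these, 6 were lower, as were 32.1% of all genes tested, and 1 was higher, as were 28.8%. On log2(TPM + 1) in limma, 6 were lower and 2 were not called, where 51.0% of all genes were called, 29.7% lower and 21.3% higher. The median log2 fold change was -0.41 over the 8 genes and -0.02 over all 17679. For 7 of the 8 genes the CPM of the 2 groups did not overlap, as for 67.1% of all genes tested. MYC was the lower group for 6 of them, against 35.1% of all genes, and the higher for 1, against 32.1%. With so many genes changed, a call for a single member is common in this comparison. In bulk RNA, fewer cells with a transcript and less of it per cell cannot be told apart.

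The fold changes of all genes followed base composition, which touches several members. Over 17202 genes with a value, more GC-rich transcripts had lower log2 fold changes (Spearman's rho -0.563, over genes that share libraries and are no replicates). Genes of 40 to 44% GC had a median of 0.24 and genes of 60 to 64% GC a median of -1.01. The fold change of each member is therefore also given with a GC offset, a fit that removes each library's trend of log2 CPM on GC content. With it, 6 members were called, where 59.2% of genes were. Of these, 5 were lower, as were 29.2% of genes, and 1 was higher, as were 30.0%. BTG1, BTG2, TOB1, TOB2 and ZFP36L1 were lower both ways, BTG3 lost its call and ZFP36 turned from lower to higher. The median over the 8 genes was then -0.25, against -0.01 over all 17202 genes.

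**Figure D1:**
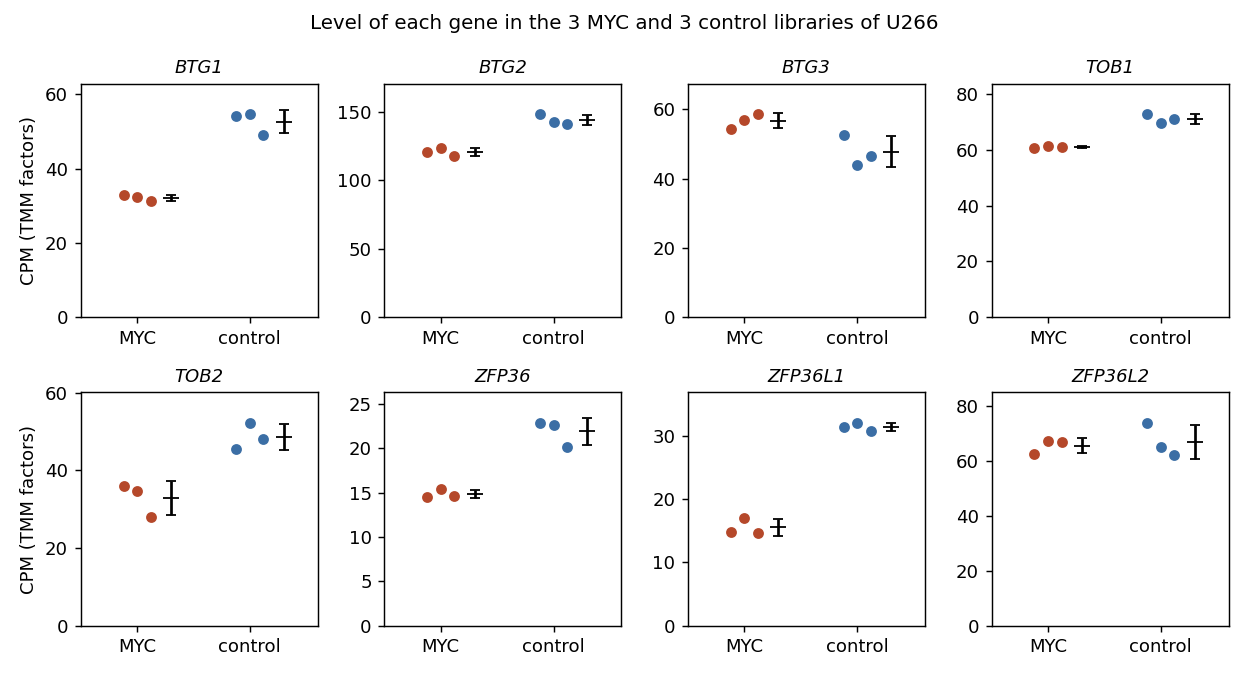
Level of each gene in CPM with TMM factors (linear axes from 0) in the 3 MYC libraries (red, left) and the 3 control libraries (blue, right), with mean and SD as a black mark and bar. ZFP36L1 lies between 14.6 and 17.1 CPM in MYC and between 30.7 and 32.1 CPM in control, while the groups of ZFP36L2 overlap.

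**Figure D2:**
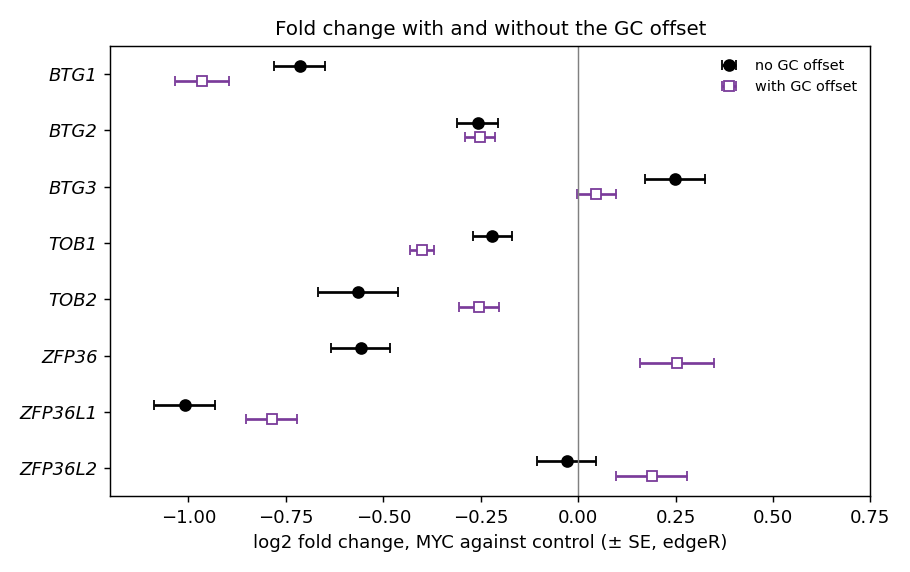
Log2 fold change of MYC against control with SE bars from edgeR, without (filled circles) and with (open squares) the GC offset, for the 8 genes. BTG1 and ZFP36L1 lie well below 0 both ways, while ZFP36 moves from -0.56 to 0.25.

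Among the BTG genes, BTG1 fell most. BTG1 (ENSG00000133639.3, chromosome 12), an antiproliferative gene of quiescent lymphocytes, had 32.8, 32.3 and 31.2 CPM in MYC libraries, against 54.3, 54.7 and 49.0 CPM in control. Every MYC library lay below every control library. It averaged 32.1 ± 0.843 CPM in MYC and 52.7 ± 3.20 CPM in control (SD, n = 3 each), 1.64-fold lower (log2 fold change -0.71 ± 0.065 SE, adjusted p = 4.08e-05, edgeR). At 40.3% GC, BTG1 went against the trend: the median log2 fold change of the 2701 tested genes within 2 percentage points of its GC content was 0.25, and 7.59% of them were called lower. With the GC offset BTG1 was 1.95-fold lower (log2 fold change -0.97, adjusted p = 3.97e-06, edgeR). Rows that overlap BTG1 were near 0: BTG1-DT on the opposite strand had at most 0.216 CPM and LINC01619 on the same strand at most 0.227 CPM.

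BTG2 had the highest mean TPM of the 8 in both groups, though BTG3 stood above it in MYC replicate 3 (64.3 against 62.7 TPM). BTG2 (ENSG00000159388.5, chromosome 1), whose protein activates deadenylation, had 120.4, 123.6 and 117.4 CPM in MYC libraries and 148.4, 142.7 and 141.0 CPM in control. The groups did not overlap, and the decrease was small, at 1.20-fold (log2 fold change -0.26 ± 0.052 SE, adjusted p = 0.00253, edgeR). It was 1.19-fold with the GC offset (log2 fold change -0.25, adjusted p = 0.000432, edgeR). BTG2-DT, a noncoding gene named for its divergent position, had 0.721 ± 0.13 CPM in MYC and 0.857 ± 0.101 CPM in control (SD, n = 3 each) and was not called.

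BTG3 (ENSG00000154640.10, chromosome 21), the family member with a longer C-terminal part, was the only one of the 8 to be called higher without the GC offset. It had 54.3, 57.0 and 58.7 CPM in MYC libraries, against 52.6, 44.0 and 46.6 CPM in control. The lowest MYC library was close to the highest control library. BTG3 rose by 0.25 ± 0.076 on the log2 scale (SE; edgeR, adjusted p = 0.0203), near the 0.18 median of genes with similar GC content. The call ended with the GC offset (0.05, adjusted p = 0.448) and on log2(TPM + 1) in limma (0.22, adjusted p = 0.117). In edgeR it also ended when MYC replicate 2 was left out (0.25, adjusted p = 0.0682), and likewise control replicate 2 (0.18, adjusted p = 0.0825) or control replicate 3 (0.22, adjusted p = 0.0845). BTG4, the remaining family member, known mainly from oocytes, had 1.23 ± 0.251 CPM in MYC and 1.08 ± 0.172 CPM in control (SD, n = 3 each) and was not called (adjusted p = 0.473, edgeR). BTG3-AS1, annotated on the opposite strand of BTG3, was not analysed here.

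The promoters of BTG1 and BTG2 are shown because these close relatives differed in how far they fell. Both strands of the 250 bases before each annotated start (RefSeq, GRCh38.p14) were searched for CACGTG (the E-box of MYC and MAX), for the TATA element TATAAA, for the CCAAT box, for the GC box GGGCGG and for the CArG box of serum response factor. Capitals mark the CCAAT box or the TATA element on either strand. BTG1 (chr12:92145847-92146096, minus strand) had TATAAA at -33 to -28, which 10.7% of 35116 promoters of that length hold on either strand, and CCAAT on the opposite strand at -87 to -83, held by 32.0%. BTG2 (chr1:203305269-203305518, plus strand) had CCAAT at -76 to -72 and GGGCGG at 3 places, and BTG1 had GGGCGG at 1 place, at -138 to -133 on the opposite strand. GGGCGG is held by 42.6% of promoters and by 6 of the 9 promoters of these genes. Rows matched 7 of the 8 genes, with 9 promoters in all, and ZFP36L2 had none. CACGTG was in 0 of the 9, and 6.34% of all promoters hold it, while the CArG box was in 0 of the 9 and is held by 1.16%. These are matches of letters in a window and not measured sites.
BTG1 promoter: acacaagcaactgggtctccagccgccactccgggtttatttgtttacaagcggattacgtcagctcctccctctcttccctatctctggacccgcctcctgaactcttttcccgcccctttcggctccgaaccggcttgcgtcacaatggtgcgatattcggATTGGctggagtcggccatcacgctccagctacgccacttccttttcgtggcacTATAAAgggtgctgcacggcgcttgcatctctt
BTG2 promoter: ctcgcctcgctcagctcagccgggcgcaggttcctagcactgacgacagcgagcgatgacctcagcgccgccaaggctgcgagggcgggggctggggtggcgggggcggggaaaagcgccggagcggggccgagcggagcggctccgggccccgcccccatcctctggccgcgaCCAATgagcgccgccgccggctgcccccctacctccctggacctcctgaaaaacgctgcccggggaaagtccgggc

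Both TOB genes fell. TOB1 (ENSG00000141232.4, chromosome 17), whose protein links CCR4-NOT to poly(A)-binding protein, had 60.9, 61.4 and 61.1 CPM in MYC libraries and 72.95, 69.6 and 71.1 CPM in control. The groups did not overlap, and the decrease was 1.16-fold (log2 fold change -0.22 ± 0.051 SE, adjusted p = 0.00557, edgeR). It was larger with the GC offset, at 1.32-fold (log2 fold change -0.40 ± 0.031, adjusted p = 5.62e-06, edgeR), where genes of similar GC content had a median of 0.16 without the offset. TOB1-AS1, on the opposite strand, also fell, with 2.33 ± 0.313 CPM in MYC and 4.77 ± 0.325 CPM in control (SD, n = 3 each, log2 fold change -1.05, adjusted p = 0.000123, edgeR). The log2 fold change of TOB1-AS1 was -0.56 with the GC offset. Whether the reads keep their strand was not checked, so reads where TOB1 and TOB1-AS1 overlap may not be told apart. The expected counts of both rows were not whole numbers in any library. With the counts of TOB1-AS1 summed into TOB1, a choice made after seeing the data, the log2 fold change of TOB1 was -0.26.

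TOB2 (ENSG00000183864.4, chromosome 22) had 36.1, 34.7 and 27.9 CPM in MYC libraries, against 45.5, 52.2 and 48.0 CPM in control. MYC replicate 3 was the lowest library and no MYC library reached the lowest control. TOB2 was 1.48-fold lower (log2 fold change -0.56 ± 0.102 SE, adjusted p = 0.00146, edgeR). The GC offset left a 1.19-fold decrease (log2 fold change -0.25, adjusted p = 0.0021, edgeR). Its processed pseudogene TOB2P1 on chromosome 6 fell as well, with 2.44 ± 0.312 CPM in MYC and 5.58 ± 0.060 CPM in control (SD, n = 3 each, log2 fold change -1.17, adjusted p = 5.37e-05, edgeR). The log2 fold change of TOB2P1 was -0.80 with the GC offset. The expected counts of TOB2P1 were whole numbers in every library, while those of TOB2 were not, so they show no reads divided between these rows. With the counts of the pseudogene summed into TOB2, a choice made after seeing the data, the log2 fold change was -0.62.

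The ZFP36 genes moved apart from each other. ZFP36L1 (ENSG00000185650.8, chromosome 14), which destabilises AU-rich mRNAs in lymphocytes, had 14.9, 17.1 and 14.6 CPM in MYC libraries, against 31.5, 32.1 and 30.7 CPM in control. Its highest MYC library stood far below its lowest control library. It averaged 15.5 ± 1.37 CPM in MYC and 31.5 ± 0.690 CPM in control (SD, n = 3 each), 2.01-fold lower (log2 fold change -1.01 ± 0.078 SE, adjusted p = 1.92e-05, edgeR). With the GC offset it was 1.725-fold lower (log2 fold change -0.79, adjusted p = 8.85e-06, edgeR).

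ZFP36L2 (ENSG00000152518.5, chromosome 2), its paralog, had 62.5, 67.4 and 66.9 CPM in MYC libraries and 73.9, 65.2 and 62.0 CPM in control. The groups overlapped, with a log2 fold change of -0.03 and an SE of 0.076 (edgeR, adjusted p = 0.756). With the GC offset it was 0.19 ± 0.091 (adjusted p = 0.102, edgeR). ZFP36L1 and ZFP36L2 have nearly the same GC content, 54.43% and 54.44%. The 2290 genes tested within 2 percentage points of either had a median log2 fold change of -0.23, and 41.6% were called lower.

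ZFP36 (ENSG00000128016.4, chromosome 19), an immediate-early gene that limits cytokine mRNAs, had 14.5, 15.4 and 14.7 CPM in MYC libraries, against 22.9, 22.7 and 20.2 CPM in control. The groups did not overlap in CPM, and it was 1.47-fold lower (log2 fold change -0.56 ± 0.075 SE, adjusted p = 0.00029, edgeR). With 59.99% GC it is the most GC-rich of the 8, and the 1975 genes within 2 percentage points had a median of -0.77, of which 74.7% were called lower. With the GC offset ZFP36 was 1.19-fold higher (log2 fold change 0.25 ± 0.095, adjusted p = 0.0443, edgeR), and the groups then overlapped. That call ended when a term for the replicate number was added (0.25, adjusted p = 0.0636, edgeR), so the direction of ZFP36 differed between the fits.

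**Figure D3:**
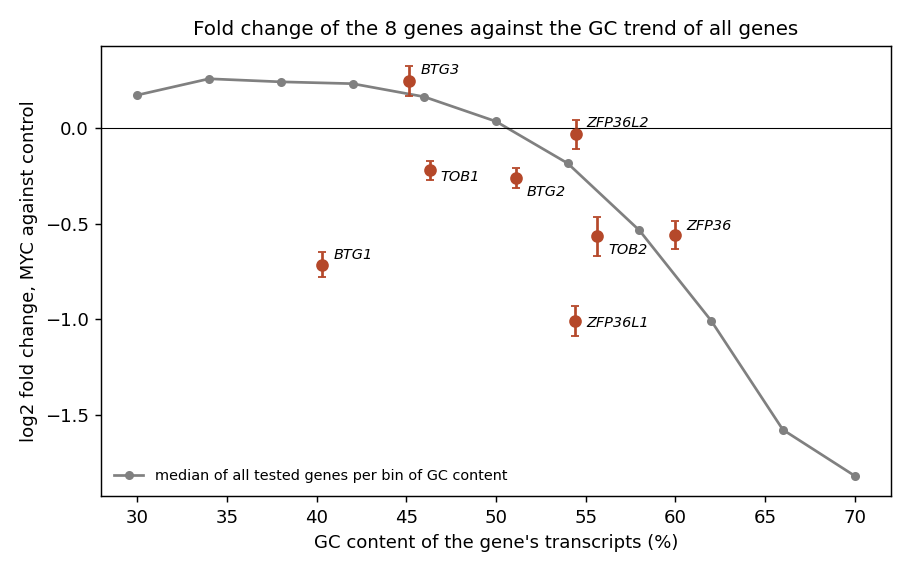
Log2 fold change of MYC against control (SE bars, no GC offset) against transcript GC content for the 8 genes (red), with the median of all tested genes in bins of GC content (grey line). BTG1 and ZFP36L1 lie furthest below the line, BTG3 lies close to it, and ZFP36 and ZFP36L2 lie above it.

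Within each family the make-up differed between the groups in the deposited TPM, which is scaled for effective length but not for GC content. ZFP36L2 made up 55.5 ± 1.03% of the summed TPM of the ZFP36 genes in MYC and 42.8 ± 0.852% in control (SD, n = 3 each). ZFP36L1 made up 15.9 ± 0.83% in MYC and 25.2 ± 0.416% in control. BTG3 made up 42.5 ± 1.51% of the BTG genes in MYC and 32.1 ± 1.77% in control, and BTG1 made up 13.3 ± 0.463% and 19.6 ± 1.02% in MYC and control. TOB1 made up 81.4 ± 1.67% of the TOB genes in MYC and 77.7 ± 1.44% in control, a difference that turned round with the GC offset, where TOB1 fell more than TOB2 (-0.40 and -0.25 on the log2 scale).

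The ratio of ZFP36L1 to ZFP36L2 in TPM was 0.288, 0.305 and 0.266 in MYC libraries and 0.584, 0.589 and 0.592 in control libraries. The ratio of BTG1 to BTG2 was 0.304, 0.298 and 0.297 in MYC and 0.404, 0.422 and 0.387 in control. That of BTG3 to BTG2 was 0.96 ± 0.058 in MYC and 0.663 ± 0.049 in control, that of TOB2 to TOB1 0.229 ± 0.025 and 0.287 ± 0.024, and that of ZFP36 to ZFP36L2 0.516 ± 0.016 and 0.749 ± 0.044 (SD, n = 3 each). In all 5 ratios, which were picked after the values were seen, the groups did not overlap. The 2-sided exact permutation test gave p = 0.1 for each, the smallest that 3 against 3 allows, and 0.1 after adjustment over the 5. The GC content of the first gene less that of the other was -10.8 percentage points for BTG1 and BTG2, -5.95 for BTG3 and BTG2, 9.31 for TOB2 and TOB1, 5.55 for ZFP36 and ZFP36L2 and -0.00494 for ZFP36L1 and ZFP36L2. The ratios were therefore also taken on GC-corrected CPM, a choice made after seeing the data. The log2 ratio of MYC against control kept its sign for ZFP36L1 to ZFP36L2 (-0.99, against -1.04 in TPM), BTG1 to BTG2 (-0.71, against -0.43) and BTG3 to BTG2 (0.30, against 0.54), again without overlap. It turned for TOB2 to TOB1 (0.14, against -0.33 in TPM) and for ZFP36 to ZFP36L2 (0.05, against -0.54), and in both the groups then overlapped. The exact permutation p on GC-corrected CPM was 0.1 for the pairs without overlap, 0.2 for TOB2 to TOB1 and 0.5 for ZFP36 to ZFP36L2 (0.167, 0.25 and 0.5 after adjustment over the 5).

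Ranked by level per length, BTG2 and ZFP36 kept their place between the groups. The neighbours BTG3 and TOB1, ZFP36L2 and BTG1, and TOB2 and ZFP36L1 changed places. In MYC the order of mean TPM was BTG2 (61.0 ± 2.09), BTG3 (58.7 ± 5.29), TOB1 (41.8 ± 0.896), ZFP36L2 (23.8 ± 1.94), BTG1 (18.3 ± 0.388), ZFP36 (12.3 ± 0.654), TOB2 (9.54 ± 0.855) and ZFP36L1 (6.81 ± 0.55). In control it was BTG2 (75.8 ± 4.01), TOB1 (51.1 ± 2.10), BTG3 (50.4 ± 6.31), BTG1 (30.7 ± 1.78), ZFP36L2 (25.1 ± 2.88), ZFP36 (18.7 ± 1.39), ZFP36L1 (14.7 ± 1.59) and TOB2 (14.6 ± 0.606), as SD with n = 3 each. BTG2 and BTG3 overlapped in MYC, and TOB1 and BTG3, and ZFP36L1 and TOB2, overlapped in control. ZFP36L2 stood above BTG1 in every MYC library and below it in every control library.

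**Figure D4:**
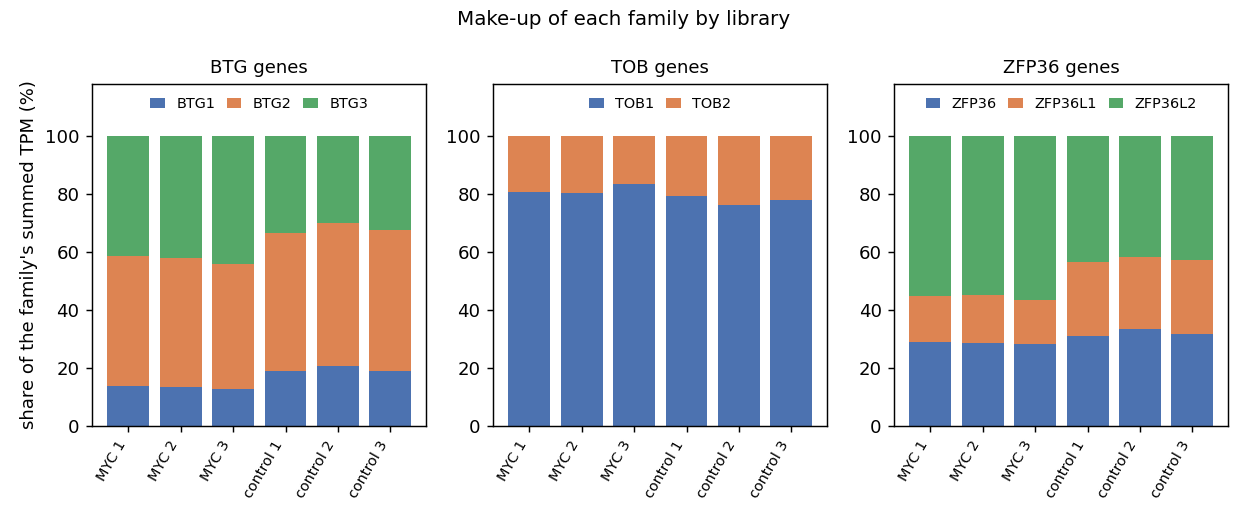
Share of each gene in the summed TPM of its family, in percent, by library (MYC left, control right). The share of ZFP36L2 is 54.8 to 56.7% in MYC and 41.9 to 43.6% in control, and the share of BTG3 is 41.3 to 44.2% in MYC and 30.1 to 33.6% in control.

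The genes whose profile over the 6 libraries was nearest to each member were named by Euclidean distance. The distance was taken between centred log2 CPM without the GC offset, among 9782 protein-coding genes with a mean of at least 5 CPM. Nearest to BTG1 were MAP2K5 (distance 0.061) and PIP5K1B (0.082), and nearest to ZFP36L1 were PPM1F (0.074) and LSM14B (0.109). RGS16 and CERS5 (0.041 and 0.042) were nearest to BTG2, TMTC2 and SLC31A1 (0.020 and 0.028) to TOB1, and SPATA2 and FHOD1 (0.029 and 0.049) to TOB2. STT3B and PURB (0.031 and 0.038) were nearest to BTG3, FITM2 and NFE4 (0.086 and 0.095) to ZFP36, and NSL1 and ADO (0.059 and 0.063) to ZFP36L2. Of the members, BTG2 and TOB1 were the closest pair (0.076). The genes so named were picked by nearness over the same libraries. Log2 fold changes close to those of the member, such as -0.67 for MAP2K5 and -1.03 for PPM1F, follow from that choice.

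The deadenylation machinery these proteins work with did not move one way. Of 12 CCR4-NOT genes tested, 5 rose and 2 fell (median log2 fold change 0.12), while the GC offset left 1 higher and 5 lower (median 0.01) and log2(TPM + 1) left 2 higher. Over all genes tested, 28.8% were called higher and 32.1% lower. The shares were 30.0% and 29.2% with the GC offset, and 21.3% were higher on log2(TPM + 1). CNOT6, a deadenylase, rose 1.48-fold (adjusted p = 0.000212, edgeR), and CNOT4 and CNOT2 rose 1.25-fold and 1.19-fold. With the GC offset only CNOT6 of these was called, at a log2 fold change of 0.33. CNOT7, a deadenylase bound by BTG and TOB proteins, chosen after its value was seen, rose 1.24-fold (log2 fold change 0.31, adjusted p = 0.00946, edgeR) and lost its call with the offset (0.06, adjusted p = 0.224). CNOT8, also bound by them and also chosen after its value was seen, was not called (log2 fold change -0.07, adjusted p = 0.39, edgeR). With the offset CNOT8 was lower (-0.20, adjusted p = 0.01, edgeR). TNKS1BP1 fell 2.60-fold and was lower with the offset too (-0.41), and CNOT3, a scaffold subunit, fell 1.65-fold but not with the offset (0.04).

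The genes of poly(A)-binding proteins did not move together. Of 9 genes of poly(A) binding and other deadenylases, 3 rose and 1 fell (median 0.12), and 1 rose and 5 fell with the offset (median -0.11). Of all genes tested 28.8% rose and 32.1% fell, and 30.0% and 29.2% with the offset. The 3 that rose became 1 on log2(TPM + 1) and when MYC replicate 2, control replicate 2 or control replicate 3 was left out. PABPC1, the main cytoplasmic poly(A)-binding protein, had 2393 ± 93.9 CPM in MYC and 1660 ± 17.9 CPM in control (SD, n = 3 each), a 1.44-fold increase (log2 fold change 0.53, adjusted p = 0.000124, edgeR) that was also called with the offset (0.45). PABPC4, named after its value was seen, had 644.1 ± 16.8 CPM in MYC and 714.7 ± 32.5 CPM in control (SD, n = 3 each). It was not called without the offset (log2 fold change -0.15, adjusted p = 0.0557, edgeR) and was lower with it (-0.16, adjusted p = 0.0175, edgeR). PABPC3 and PAN3 had log2 fold changes of 0.20 and 0.26, and neither was called with the offset (-0.05 and 0.04). The expected counts of PABPC3 and PABPC1 were not whole numbers in any library, so their reads may be shared with other rows. PAN2, a deadenylase subunit, fell both ways (-0.24, and -0.27 with the offset).

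In decapping and decay from the 5′ end, 3 of 12 genes tested rose and 2 fell (median 0.03), and with the offset 5 rose and 4 fell (median 0.04). For this list and the next, the shares over all genes were 28.8% higher and 32.1% lower, and 30.0% and 29.2% with the offset. The helicase DDX6 and the decapping enzyme DCP2 rose both ways (log2 fold changes 0.45 and 0.53, and 0.21 and 0.29 with the offset). PATL1 rose (0.25) but not with the offset (0.06). LSM14B fell both ways (-1.02 and -0.39), and EDC4 fell without the offset and rose with it (-0.60 and 0.11). Among other proteins that bind AU-rich elements or carry CCCH fingers, 7 of 15 rose and 2 fell (median 0.15), and 5 rose and 5 fell with the offset (median -0.03). HNRNPAB rose 1.55-fold, HNRNPD (AUF1), which binds AU-rich elements, 1.44-fold and RC3H1 (Roquin) 1.38-fold, and all 3 were higher with the offset. CPEB3 fell both ways (-0.68 and -0.92), and the RNase ZC3H12A fell 1.93-fold without the offset and was not called with it (-0.03).

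Upstream of ZFP36, where p38 and MK2 kinases, YWHA adaptors and phosphatases set its activity, 9 of 18 genes rose and 4 fell (median 0.18), and 7 rose and 2 fell with the offset (median 0.05). Among all genes tested, 28.8% rose and 32.1% fell, and 30.0% and 29.2% with the offset. The p38 activator MAP2K6 rose 1.965-fold, with 8.43 ± 0.211 CPM in MYC and 4.29 ± 0.448 CPM in control (SD, n = 3 each), and the adaptors YWHAQ and YWHAH rose 1.52-fold and 1.28-fold. All 3 were higher with the offset (0.72, 0.40 and 0.33). DUSP10 and DUSP1, phosphatases that switch off p38 and related kinases, fell (-1.045 and -0.52) and were lower with the offset (-1.245 and -0.26). MAPK11 fell 2.50-fold from a low level and was not called with the offset (-0.11).

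Reported target mRNAs of ZFP36 proteins in other systems went both ways. Of 30 such genes 19 were tested, 5 rose and 8 fell (median -0.07), and 7 rose and 7 fell with the offset (median -0.13). Shares over all genes tested were 28.8% higher and 32.1% lower, and 30.0% and 29.2% with the offset. The G1 kinase CDK6 rose 4.36-fold, with 51.9 ± 2.76 CPM in MYC and 11.9 ± 1.11 CPM in control (SD, n = 3 each), and BIRC3, an inhibitor of apoptosis, rose 1.57-fold. With the offset their log2 fold changes were 1.89 and 0.40, against 2.12 and 0.65 without it. CCND1, cyclin D1, fell 1.54-fold, or by 0.62 on the log2 scale and by 0.28 with the offset, and E2F1 fell 1.97-fold without the offset and rose slightly with it (0.14). Of the cytokine genes, IL6, a growth factor of myeloma cells, was clearly expressed, and is named here after its value was seen. It had 12.8, 12.9 and 11.9 CPM in MYC libraries and 7.01, 7.66 and 8.65 CPM in control, and rose (log2 fold change 0.69, adjusted p = 0.000341, edgeR), also with the offset (0.49). IL10 and IL1B had few counts in 1 group. IL10 had 2, 7 and 5 counts in MYC libraries and 130, 185 and 278 in control (called lower, adjusted p = 1.67e-06, edgeR), and IL1B had 15, 60 and 30 counts in MYC and 1, 2 and 7 in control (called higher, adjusted p = 8.87e-05, edgeR), and both calls stood with the offset. The list genes IL2 and CXCL1 had 0 counts in every library.

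Genes with the element itself were described across the tested genes. Of 8637 genes with 0 matches to TATTTAT in the longest 3′ untranslated region, 29.9% rose and 38.8% fell. Of 891 genes with 3 or more, 44.1% rose and 18.4% fell, with medians of 0.16 for these and -0.07 for genes without a match. GC content moved with the matches, with a median of 41.9% for 3 or more and 52.3% for none. With the GC offset 29.7% of the genes with 3 or more rose and 34.8% fell (median -0.04), and 36.3% of genes without a match rose and 28.3% fell (median 0.04). The part of the element in these differences was not tested.

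Among partners of BTG and TOB proteins, 6 of 12 rose and 2 fell (median 0.11), and 4 rose and 4 fell with the offset (median 0.05). By comparison, 28.8% of all genes tested rose and 32.1% fell, and 30.0% and 29.2% with the offset. HOXB9, a homeodomain factor bound by BTG proteins, had 3.14, 2.85 and 2.34 CPM in MYC libraries and 0.234, 0.0905 and 0.257 CPM in control (log2 fold change 3.78, adjusted p = 1.6e-05, edgeR, and 4.05 with the offset). CAPRIN1, a partner of BTG and TOB proteins, rose 1.42-fold, or 0.31 on the log2 scale with the offset. SMAD3 and the arginine methyltransferase PRMT1, which binds BTG1 and BTG2, fell (-0.25 and -0.41), and neither was called with the offset (-0.08 and 0.05). The groups of PRMT1 overlapped in CPM. The 2 called lower in this list became 0 when MYC replicate 2, control replicate 2 or control replicate 3 was left out, and 1 with a term for the replicate number.

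ZFP36 and BTG2 are often induced as immediate-early genes, and other genes of that class were mostly lower without the offset. Of 28 tested, 21 fell and 2 rose (median -0.53), but with the offset 14 fell and 9 rose (median -0.14). Over all genes tested 32.1% fell and 28.8% rose, and 29.2% and 30.0% with the offset. Among genes within 2 percentage points of the GC content of ZFP36, 74.7% fell without the offset. PPP1R15A fell 4.08-fold, JUN 2.52-fold and ATF3 1.90-fold, and each was also lower with the offset (-1.49, -0.92 and -0.96). SGK1 rose 1.86-fold, and FOSB rose from a low level, both also with the offset (0.68 and 1.73). JUNB and IER2, chosen after their values were seen, fell without the offset (-1.12 and -0.82) and rose with it (0.34 and 0.43), as ZFP36 did.

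**Figure D5:**
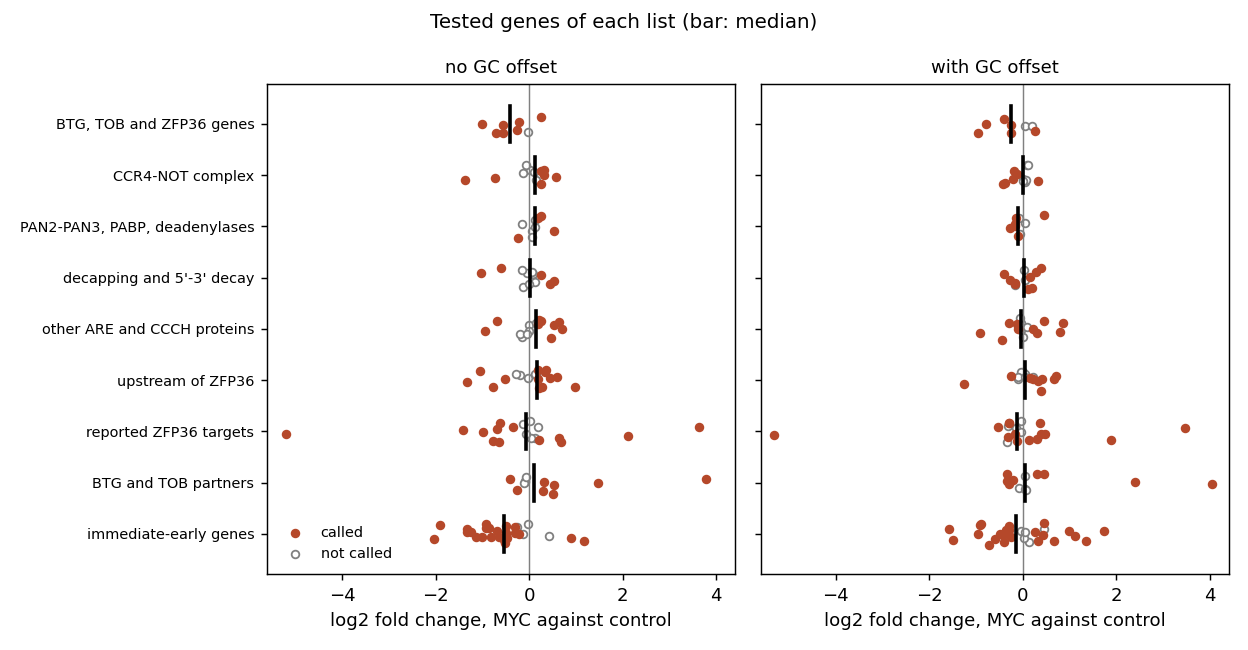
Log2 fold change of MYC against control for each tested gene of the BTG, TOB and ZFP36 genes and of each list (points) and the list's median (bar), without (left) and with (right) the GC offset, red where called. Immediate-early genes have a median of -0.53 on the left and -0.14 on the right, and the lists of the decay machinery lie around 0.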

How the data were processed

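Poly-A RNA of U266 came from 3 MYC and 3 control samples. Libraries were made with a kit of the NEBNext Ultra line, per the labels' protocols. Whether the reads keep their strand was not checked. The submitters' processing notes name cutadapt, TopHat2 and the build GRCh37, while their versions and the annotation were not given in the sources used here. Each library has an RSEM table by the authors, whose headers name the deposited expected count, the TPM and the effective length (a length in bases). Among these, TPM as deposited by the authors is scaled for length and depth.

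The rounded expected counts went into the edgeR 4.0.16 quasi-likelihood F test (R 4.3.3), with filterByExpr, TMM and group as the only term, and p-values were adjusted by Benjamini-Hochberg. SE comes from the F statistic. For the GC offset, a loess curve (span 0.4) of log2 CPM (prior count 2) on the GC content of GENCODE 29 transcripts was subtracted in every library and TMM recomputed. Limma 3.58.1 and DESeq2 1.42.0 served as alternatives. Symbols matched 51996 of 57820 identifiers, which hold 98.35% of the counts. A test used counts simulated with the depths and dispersions of these libraries (17379 genes). In it 56, 75 and 69 genes were changed 1.5-fold, 2-fold and 4-fold. The share recovered was 60.7% at 1.5-fold, 80% at 2-fold and 91.3% at 4-fold, and 14 of 171 calls were of genes left unchanged. These counts held no GC trend and far fewer changed genes than the 60.8% called in the real data. The shares therefore need not hold for the real comparison. Libraries of a group differed beyond counting noise, with a chi-square of at least 8.45 for each degree of freedom.

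Members and lists were chosen with earlier results of these data known, and lists are described by counts and medians. In each list up to 3 called genes in each direction, by smallest adjusted p, are named, as are the 2 nearest genes to each member. Any other name is said to have been chosen after its value was seen. In the decapping list 1 symbol had no matching row. The list of transcription factors acting on BTG genes is not reported here. Promoters are from RefSeq.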

Additional observations from a re-analysis of the deposited data

How the results depend on the processing

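BTG1, BTG2, TOB1, TOB2 and ZFP36L1 kept their direction and call under all 19 alternatives, with log2 fold changes of -0.97 to -0.69 for BTG1, -0.31 to -0.24 for BTG2, -0.40 to -0.20 for TOB1, -0.63 to -0.25 for TOB2 and -1.099 to -0.79 for ZFP36L1. The alternatives were RLE factors, library totals, DESeq2, limma-voom, limma on log2(TPM + 1) and log2(TPM + 0.1), no filter, mean CPM of at least 5, effective length offset, GC offset, replicate block, both together, each library left out and, added after seeing the data, overlapping and pseudogene rows summed in. ZFP36 reversed with the GC offset (0.25) and with that offset and the replicate block (0.25), and ZFP36L2, never called, with these (0.19 and 0.195) and without control replicate 1 (0.0225) or MYC replicate 1 (0.004). Its range with a library left out was -0.0907 to 0.0225. BTG3 lost its call on log2(TPM + 1) (0.22), on log2(TPM + 0.1) (0.22), with the GC offset (0.0466) and with that offset and block (0.0508). With a library left out it ranged from 0.18 to 0.30. The number of members called higher, 1 as reported, was 0 on both TPM scales and with the GC offset and block, and 0 to 1 with a library left out. The number called lower stayed within 5 to 6. On GC-corrected CPM, added after seeing the data, the log2 ratios of TOB2 to TOB1 (0.144) and ZFP36 to ZFP36L2 (0.0509) reversed. The cause of these changes was not tested.

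Of the list counts, 160 stayed within 1.5 times and 20 moved, 10 of them with the GC offset. Same-numbered samples had correlations of deviations of -0.047, 0.078 and 0.11, and not every sample correlated best with its own number. With 3 samples in each group, such correlations cannot tell whether a shared number means a shared culture or preparation. The labels do not say. The replicate block changed 10756 calls to 10029 and no call of a member (TOB1 -0.22, adjusted p = 0.0285, BTG3 0.25, adjusted p = 0.0423, edgeR). MYC replicate 1, the shallowest library, held 383 counts of ZFP36 but 2 of IL10 and 15 of IL1B, so the ratio of such low genes is imprecise.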
